A study of Rattus norvegicus with 6 samples.

Results

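The GABAergic interneuron markers described here are 4 genes, Gad1 (ENSRNOG00000000007), Gad2 (ENSRNOG00000018200), Sst (ENSRNOG00000001837) and Npy (ENSRNOG00000046449), out of 32754 gene IDs in the deposited count table. The rule takes them by ID and uses no measured value. The names were given with the IDs. The table holds IDs without names, and the reference gene table used here carries the 4 symbols but 0 Ensembl IDs, so the pairing of names with IDs was not checked against the Rnor_6.0 annotation and no member was dropped.

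RNA from the cortex of 6 rat embryos, all at embryonic day 18, was sequenced. The control group, SD, was 3 Sprague-Dawley embryos (2 males and 1 female) whose neocortex was taken. The tish group was 3 embryos (2 males and 1 female) of the tish line, in which some neurons collect under the cortex of both hemispheres as a heterotopia. The series title ties this to a deletion in Eml1, the gene of a microtubule-associated protein, and the tish tissue held both the normally placed and the heterotopic cortex. These tissues come from the extraction protocol, whereas each tish sample is labelled neocortex and each SD sample cortex. The effects of genotype and of the tissue taken cannot be told apart, and the labels name no litters. If embryos of a group shared a litter, the p-values measure the spread between these samples only.

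GABAergic interneurons release GABA, the main inhibitory transmitter of the cortex. They are born in the ganglionic eminences of the ventral forebrain and migrate into the cortex before birth. Gad1 and Gad2 encode the enzymes that make GABA from glutamate; the Gad1 enzyme is found throughout the cell and the Gad2 enzyme is largely tied to vesicles at nerve endings. Sst encodes somatostatin and Npy neuropeptide Y, peptides released by subsets of these cells, many of them born in the medial ganglionic eminence. Gad1 and Gad2 are also expressed by GABAergic neurons of the striatum, which lies beneath the cortex. Genes that separate striatum from cortex, and other defining markers of the tissue, were not analysed here because the IDs carry no names. A share of tissue from outside the cortex was therefore not assessed for any member, Sst and Npy included.

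The promoters of the 3 members with usable counts are shown so that their letters can be compared. No relation of these sequences to the counts was tested. Each run holds the 250 bases before the gene's annotated start in RefSeq, read 5′ to 3′ on the plus strand of the GRCr8 build; the read counts were made on another build, Rnor_6.0. Capitals mark the letters of a TATA box (TATAAA), 213 bases before the start of Gad1 and so far from where such a box usually lies, and of a homeodomain core (TAATTA), 246 bases before the start of Sst.
Gad1 (chr3:75777202-75777451): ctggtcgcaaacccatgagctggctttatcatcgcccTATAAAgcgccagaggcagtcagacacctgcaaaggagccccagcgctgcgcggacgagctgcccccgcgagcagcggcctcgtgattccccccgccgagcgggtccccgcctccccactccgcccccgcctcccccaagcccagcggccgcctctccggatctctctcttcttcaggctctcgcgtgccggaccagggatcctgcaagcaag
Gad2 (chr17:89671468-89671717): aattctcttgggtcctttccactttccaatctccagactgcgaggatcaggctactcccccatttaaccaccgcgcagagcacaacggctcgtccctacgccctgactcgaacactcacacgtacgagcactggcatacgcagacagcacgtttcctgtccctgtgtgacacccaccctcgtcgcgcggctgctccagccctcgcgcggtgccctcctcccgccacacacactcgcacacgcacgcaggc
Sst (chr11:90461296-90461545): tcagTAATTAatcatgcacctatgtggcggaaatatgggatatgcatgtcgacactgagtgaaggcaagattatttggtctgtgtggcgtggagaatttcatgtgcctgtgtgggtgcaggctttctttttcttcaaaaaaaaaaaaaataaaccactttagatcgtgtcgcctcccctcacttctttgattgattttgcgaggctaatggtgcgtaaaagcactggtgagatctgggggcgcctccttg
The Sst window also holds the cyclic AMP response element TGACGTCA, known for its part in somatostatin transcription, at position 3 after the annotated start. Whether transcription begins at that annotated start was not checked. The element is shown in capitals in 30 bases around its position.
Sst (chr11:90461537-90461566): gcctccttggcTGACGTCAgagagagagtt

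All 4 symbols matched the promoter table. Over windows of 300 bases (250 before and 50 after the start) and on both strands, TGACGTCA was found in 1.83% of 33469 promoters and in 1 of the 4 members, Sst. Its shorter form TGACG, which lies inside it on either strand, was found in 21.2% of promoters and also in Sst alone among the members. TAATTA was in 5.36% of promoters and in Sst, and TATAAA was in 14.2% and in Gad1. The E box CANNTG was in 72.1% of promoters and occurred 1 time each in Gad1 and Sst. None of these motifs was found in the Gad2 or Npy window. The 250 bases before the start were 68.4% G or C in Gad1, 62.0% in Gad2 and 44.4% in Sst. A match is a run of letters and no evidence of binding.

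Library totals ran from 15625915 to 20844504 counts. Levels are given as CPM, read counts divided by the library's summed counts over the tested genes and put on a common scale. These sums were scaled by TMM, a method that adjusts them for a shift in composition. The factors ran from 0.970 to 1.04. Counts are not corrected for transcript length, so the level of 1 member is not ranked against that of another. Both SD 1 and tish 3 stood apart in small sets of genes. A level 4-fold or more under that of all other libraries was found for 46 genes in tish 3 and for 0 to 6 genes elsewhere, and a level as far above for 18 genes in SD 1 and 0 elsewhere. Results without SD 1 and tish 3 are given beside the values below. In bulk tissue, more cells of a type and more RNA per cell cannot be told apart.

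Of the 4 members, 3 had enough counts to be tested and 2 of these, Gad1 and Sst, were higher in tish, by 1.42-fold and 1.39-fold. Gad2 did not pass the test, and the row paired with Npy was close to 0 in every library. A gene was called at an adjusted p under 0.05 in edgeR's quasi-likelihood test, which called 26.3% of the 14818 tested genes, 13.4% higher and 12.9% lower in tish. With calls this common, nothing particular to the members is read from their count. The background itself moved with the libraries, since 2437 genes were called without tish 1, 2502 without tish 3 and 4764 without SD 1, against 3894 with all 6.

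Gad1, the GABA-synthesising enzyme found throughout the cell, was counted 2707, 1944 and 2340 times across SD 1 to SD 3, against 3086, 3172 and 3815 times across tish 1 to tish 3. Scaled, the SD libraries stood at 154, 105 and 125 CPM and the tish libraries at 197, 154 and 194 CPM. The highest SD library, SD 1, and the lowest tish library, tish 2, met at almost the same level, while the other two tish libraries lay well above all of SD. Group means were 128 ± 24.7 CPM for SD and 182 ± 24.0 CPM for tish (± standard deviation, n = 3 each). The log2 fold change was 0.50 (SE 0.15, 95% interval 0.16 to 0.85, edgeR adjusted p = 0.0401), which is a fold of 1.42 with an interval of 1.12 to 1.80. The call was close to the threshold. Without SD 2, SD 3, tish 1 or tish 3 the log2 fold change was 0.38, 0.48, 0.45 and 0.45, and the edgeR adjusted p was 0.105, 0.116, 0.133 and 0.116. It was also 0.0715 without scaling factors, at a log2 fold change of 0.46. Without SD 1 the log2 fold change was 0.66 (edgeR adjusted p = 0.00436), and without SD 1 and tish 3 together it was 0.61 (edgeR adjusted p = 0.0158).

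Gad2, the vesicle-associated enzyme, was counted 1983, 1723 and 2224 times across SD 1 to SD 3, against 1955, 2013 and 2425 times across tish 1 to tish 3. The SD libraries stood at 113, 93.0 and 119 CPM and the tish libraries at 125, 97.7 and 123 CPM. The groups overlapped, with tish 2 below SD 1 and SD 3. Group means were 108 ± 13.7 CPM for SD and 115 ± 15.2 CPM for tish (± standard deviation, n = 3 each). The log2 fold change was 0.09 (SE 0.12, edgeR adjusted p = 0.640). Its 95% interval, -0.19 to 0.37, spans folds of 0.877 to 1.29. With 1 library left out the estimate ran from -0.0053 without SD 2 to 0.20 without tish 2, and without SD 1 and tish 3 together it was 0.07 (edgeR adjusted p = 0.790).

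Sst, the precursor of somatostatin, separated the groups with the least spread of the 3. Its reads numbered 1625, 1606 and 1474 across SD 1 to SD 3, against 1780, 2560 and 2372 across tish 1 to tish 3. The SD libraries stood at 92.5, 86.6 and 79.0 CPM and the tish libraries at 114, 124 and 121 CPM, so each tish library lay above each SD library. The groups did not overlap in 44.3% of tested genes, 21.7% with tish higher. Group means were 86.1 ± 6.79 CPM for SD and 120 ± 5.43 CPM for tish (± standard deviation, n = 3 each). The log2 fold change was 0.47 (SE 0.08, 95% interval 0.28 to 0.66, edgeR adjusted p = 0.00388), a fold of 1.39 with an interval of 1.22 to 1.59. Sst was called under all 17 alternatives tried, with log2 fold changes of 0.41 to 0.53 and adjusted p of 7.27e-05 to 0.0352. Without SD 1 and tish 3 together the log2 fold change was 0.52 (edgeR adjusted p = 0.00771).

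**Figure D1:**
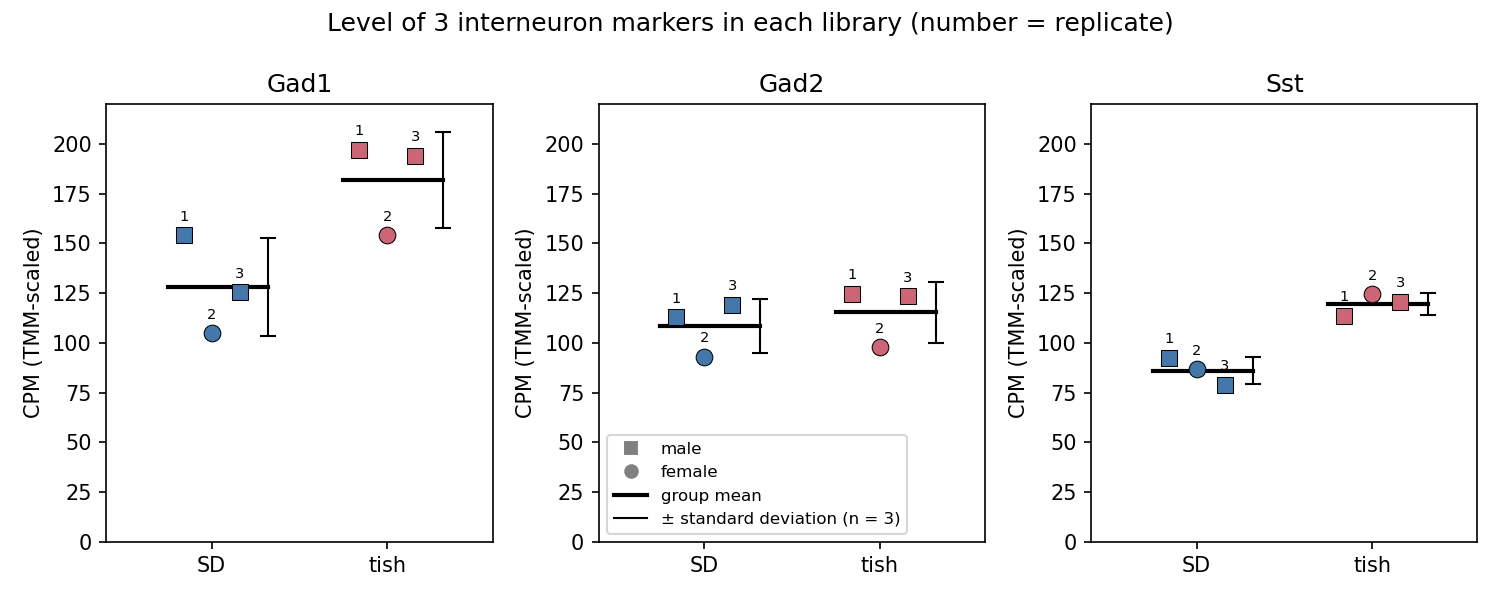
Level of Gad1, Gad2 and Sst (vertical axis, TMM-scaled CPM) in the 3 SD and 3 tish libraries (horizontal axis), with squares for males and circles for females, numbers for replicates, a line at each group mean and a bar of 1 standard deviation. Sst runs from 79.0 to 92.5 CPM in SD and from 114 to 124 CPM in tish with no overlap, while Gad1 meets at 154 CPM and Gad2 overlaps.

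Counting error was below the spread between animals for all 3 members. From its counts alone, Gad1 would vary by 1.92%, 2.27% and 2.07% in SD 1, SD 2 and SD 3, but the coefficient of variation of its CPM was 19.3% in SD and 13.2% in tish. For Gad2 it was 12.6% and 13.2%, and for Sst 7.89% and 4.54%. The counting error of Sst was 2.48%, 2.50% and 2.60% across SD 1 to SD 3 and 2.37%, 1.98% and 2.05% across tish 1 to tish 3, nearer to its spread than for the other two.

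Neither change was large for this comparison. A log2 fold change above that of Gad1 was found in 13.6% of tested genes and above that of Sst in 14.5%, and 26.5% and 28.6% of tested genes had a larger absolute value. Called genes had a median absolute log2 fold change of 0.69, and over all tested genes the median log2 fold change was -0.02.

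**Figure D2:**
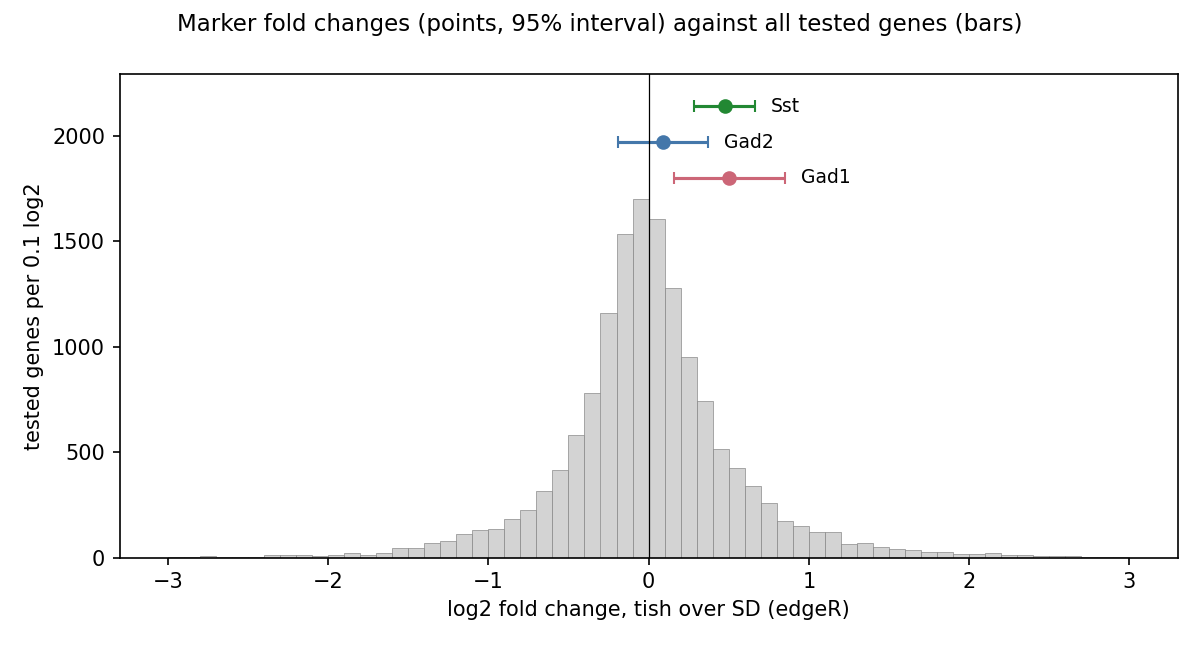
Number of tested genes (vertical axis, bars) by log2 fold change of tish over SD (horizontal axis, classes of 0.1, 67 genes beyond the plotted range left out), with Gad1, Gad2 and Sst as points above them, each with its 95% interval. Gad1 at 0.50 and Sst at 0.47 lie on the right shoulder of the distribution with intervals above 0, and the interval of Gad2 spans 0.

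Npy, the precursor of neuropeptide Y, could not be compared. The row paired with it held 0 counts in all 3 SD libraries, against 1, 5 and 2 across tish 1 to tish 3. That is 0 counts summed over SD and 8 over tish, and 45.5% of the 32754 IDs had a sum as low or lower. A count of 0 allows up to 3 counts in a library, or 0.161 to 0.171 CPM in the SD libraries, which covers counting error only. This limit holds for a single library and was not worked out for a whole group, so the tish sum is not set against it. With 0 counts in SD, no fold is given. The row did not reach edgeR's count filter. With no filter, edgeR's p was 0.0106 and its adjusted p 0.0580, and DESeq2 gave a p of 0.0988 and no adjusted p. Npy transcripts are known from a subset of cortical interneurons. Whether the low counts reflect the tissue, the gene model of this ID or its pairing with the name was not tested, so the row is read neither as absence of the peptide's transcript nor as a difference between the groups.

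Ratios of the members within a library do not depend on depth or scaling and ask if 2 members changed by unequal amounts. Gad1 counts were 1.37, 1.13 and 1.05 times Gad2 counts across SD 1 to SD 3, against 1.58, 1.58 and 1.57 times across tish 1 to tish 3. Each tish library lay above each SD library. The mean ratio was 1.18 ± 0.163 for SD and 1.58 ± 0.00266 for tish (± standard deviation, n = 3 each), a fold of 1.34 between the groups on the log scale. With 3 libraries against 3, the exact two-sided permutation test cannot go below 0.1, and it gave p = 0.1 (0.3 after Benjamini-Hochberg adjustment over the 3 ratios computed). Without SD 1 and tish 3 together the log2 difference was 0.53, against 0.42 with all libraries. The near-identical ratios in tish are closer than counting allows on average, since each has a counting error of 2.60% to 2.89%, so their small standard deviation is no measure of precision.

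Sst and Gad1, the members that were called, were higher in tish by similar folds. The ratio of Sst to Gad1 was 0.600, 0.826 and 0.630 across SD 1 to SD 3, against 0.577, 0.807 and 0.622 across tish 1 to tish 3. The groups covered nearly the same range, and the log2 difference of tish minus SD was -0.04 beside a standard deviation of 0.25 in each group (exact two-sided permutation p = 0.7, adjusted 0.7). Its sign changed without SD 2 (0.11), tish 1 (0.06) or tish 3 (0.01), and it was -0.08 without SD 1 and tish 3 together. The ratio of Sst to Gad2 was 0.819, 0.932 and 0.663 across SD 1 to SD 3, against 0.910, 1.27 and 0.978 across tish 1 to tish 3. These groups overlapped, with SD 2 above tish 1, and the log2 difference was 0.39 (exact two-sided permutation p = 0.2, adjusted 0.3) and 0.45 without SD 1 and tish 3 together. Ratios with Npy were not computed, because its SD counts were 0.

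**Figure D3:**
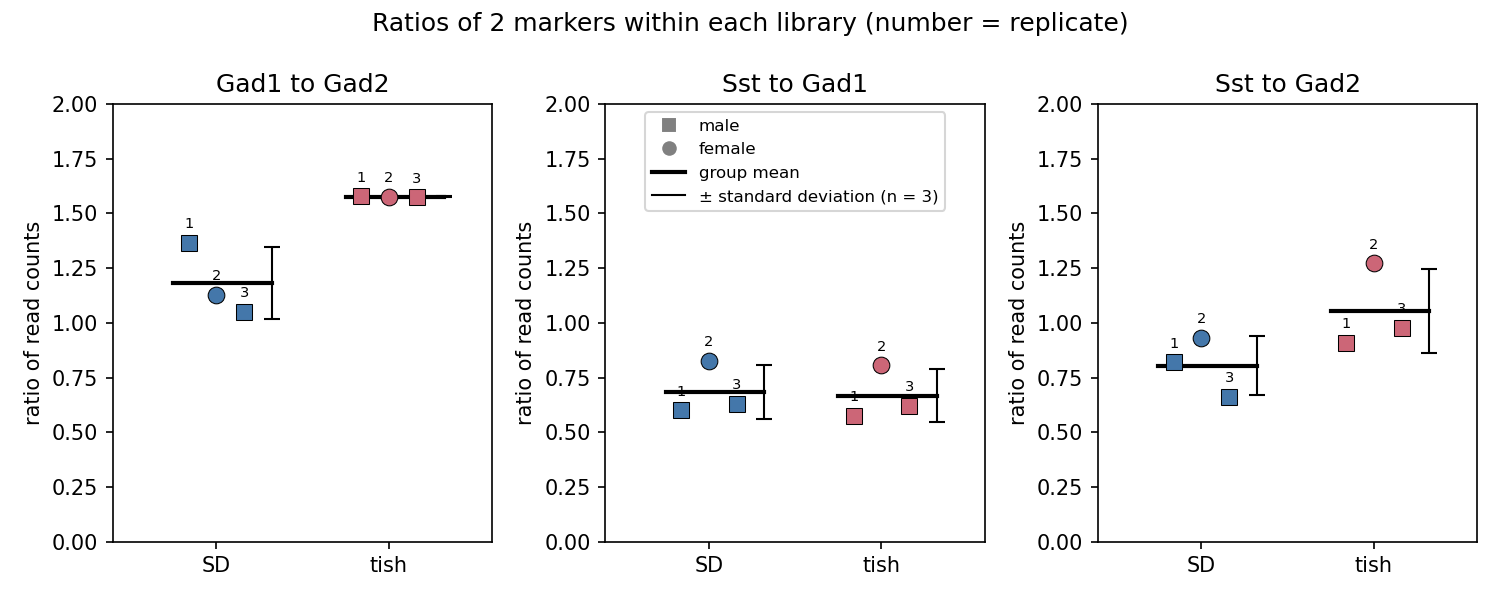
Ratio of read counts of 2 members within each library (vertical axis) in SD and tish (horizontal axis), marked as in the plot of levels. The 3 tish libraries lie at 1.57 to 1.58 for Gad1 to Gad2, above the SD libraries at 1.05 to 1.37, and the groups overlap for Sst to Gad1 with the female library highest in each.

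Within both groups the female embryo stood at one end for the GABA-synthesising enzymes. The female library, SD 2 or tish 2, had the lowest Gad1 and the lowest Gad2 of its group. The share of all tested genes with this order was not computed, so nothing particular to the members is read from it. With genotype in the model, Gad1 was at 129 CPM in the 2 females and 168 CPM in the 4 males, a log2 fold change of females over males of -0.38 (SE 0.09, edgeR adjusted p = 0.487). Gad2 was at 95.3 and 120 CPM, a log2 fold change of -0.33 (SE 0.07, edgeR adjusted p = 0.487). For Sst it was 0.05 (SE 0.09, edgeR adjusted p = 0.839), with 105 CPM in females and 101 CPM in males. Between the sexes edgeR called 0 of the 3 members and 0.0405% of tested genes. An unadjusted edgeR p under 0.05 was found for 2 of the 3, Gad1 and Gad2, and for 9.79% of all tested genes. DESeq2 gave an unadjusted p under 0.05 for 2 and called 0. The comparison was set up after the values had been seen. Each genotype had 1 female, so the value rests on 2 animals. The Gad1 difference in females over males was -0.41 in SD and -0.34 in tish, and that of Gad2 was -0.32 and -0.34. With sex as a second term, the genotype difference of Gad1 kept its size at 0.51 with a smaller standard error of 0.09 (edgeR adjusted p = 0.00351). That of Gad2 was 0.09 (SE 0.07, edgeR adjusted p = 0.355) and that of Sst 0.47 (SE 0.08, edgeR adjusted p = 0.00336). The fit with sex called 4372 genes for genotype, against 3894 with genotype as the only term. Among males alone, 2 against 2, the log2 fold change was 0.49 for Gad1 (edgeR adjusted p = 0.0368) and 0.46 for Sst (edgeR adjusted p = 0.0352). Gad2 stood at 0.10 (edgeR adjusted p = 0.462) in the fit of males alone, which called 2130 genes.

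**Figure D4:**
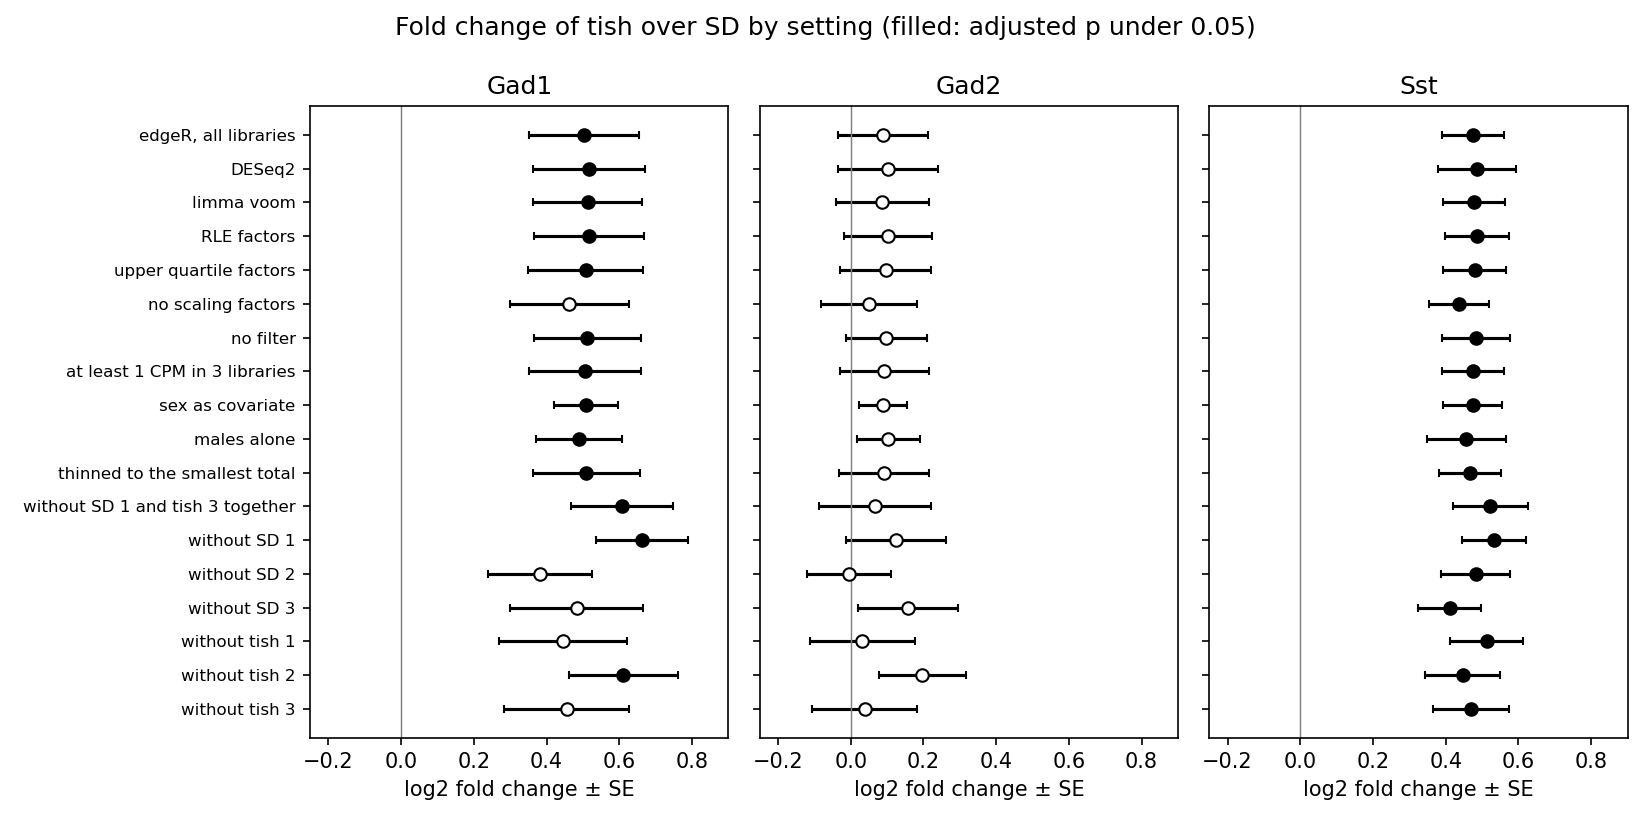
Log2 fold change of tish over SD with its standard error (horizontal axis) for Gad1, Gad2 and Sst under each setting (vertical axis), with filled points where the adjusted p was under 0.05. All points of Sst are filled, Gad2 has none, and Gad1 loses its call without scaling factors and without SD 2, SD 3, tish 1 or tish 3.

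The profiles of Gad1 and Sst over the 6 libraries were compared with those of all tested genes. Likeness was the root mean square distance between log2 CPM profiles after each was centred on its own mean. Nearest to Gad1 was ENSRNOG00000015528, at a distance of 0.0314 against a median of 0.387 for all tested genes. Its reads numbered 4854, 3549 and 4263 across SD 1 to SD 3, against 5335, 5880 and 6923 across tish 1 to tish 3, and its log2 fold change was 0.49 (SE 0.14, edgeR adjusted p = 0.0307). Nearest to Sst was ENSRNOG00000019708, at a distance of 0.00966 against a median of 0.335. Its reads numbered 1005, 989 and 904 across SD 1 to SD 3, against 1095, 1569 and 1483 across tish 1 to tish 3, and its log2 fold change was 0.48 (SE 0.09, edgeR adjusted p = 0.00536). Each was chosen as the nearest of all tested profiles over 6 libraries, so the closeness is a description. Among the members, the distance was 0.206 between Gad1 and Sst, 0.240 between Gad1 and Gad2, and 0.282 between Gad2 and Sst. Of tested genes, 8.08% lay nearer to Gad1 than Sst did, 13.6% nearer to Gad1 than Gad2 did, and 52.6% nearer to Gad2 than Sst did.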

How the data were processed

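RNA of 6 embryos was sequenced, 1 library each. The submitters' processing notes name STAR, featureCounts 1.5.0 and the build Rnor_6.0. The STAR version, annotation, strandedness and handling of multi-mapping reads were not given in the sources used here. Reads of overlapping genes could therefore be shared. The authors deposited raw counts, with every member ID listed 2 times at the same values, and the first was used. Genes were filtered with filterByExpr (minimum count 10), scaled by TMM and tested with edgeR 4.0.16 in R 4.3.3 (robust quasi-likelihood F test, genotype as the only term, Benjamini-Hochberg adjustment over 14818 genes). The standard error is the log2 fold change divided by the square root of F. Like-pattern profiles used a prior count of 2. Libraries of a group differed beyond sampling noise (chi-square at least 8.56 times its degrees of freedom), so none was a repeat sequencing of another library. Separate libraries made from the same animal could not be told apart in this way. The procedure was tested on simulated data. Alternatives used DESeq2 1.42.0, limma 3.58.1, other scalings and filters, sex, males alone, thinning and each library left out. The named genes are the 4 members plus, as the IDs carry no names, the nearest profile of a member, at most 2 higher and 2 lower in tish. Gene lists planned by symbol were not analysed here. The members, lists and tests were chosen with earlier results of these data known.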

Additional observations from a re-analysis of the deposited data

How the results depend on the processing

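Leaving out SD 1 and tish 3 together and all settings of the sex comparison were chosen after seeing the data. For Gad1, 12 of 17 alternatives kept the call; the log2 fold change was 0.46 without scaling factors, where it was lost, and 0.38 to 0.66 with 1 library left out, where it was lost without SD 2, SD 3, tish 1 or tish 3. Sst kept its call in 17 of 17. Gad2 was called in none, at -0.0053 (without SD 2) to 0.20 with 1 library left out and 0.05 to 0.10 otherwise. The log2 ratio difference of Sst to Gad1 ran from -0.18 to 0.11 with 1 library left out, positive without SD 2 (0.11), tish 1 (0.06) and tish 3 (0.01); those of Gad1 to Gad2 and Sst to Gad2 stayed positive in 10 of 10 alternatives each. Genes called numbered 2130 with males alone, which has fewer samples, and 2437 to 4764 with 1 library left out. The sex differences kept their sign and stayed uncalled in 10 of 10 alternatives for each gene. The cause of these changes was not tested. In the Npy row a count of 0 allows up to 3 counts per library, and whether depth limits that row was not tested. No paired analysis was possible because the labels carry no replicate numbers that tie animals of one group to the other.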
